A study of Mus musculus with 24 samples.

Results

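The effect of environmental enrichment on hippocampal gene expression was examined in mice whose MSK1 kinase is inactive. The series holds 24 polyA RNA libraries of whole hippocampus, 6 for each of the 4 combinations of genotype and housing, and 9 of them enter this comparison. These are 4 libraries from enriched MSK1 kinase-dead mice (KD EE, libraries 7, 8, 32A and 36A) and 5 from standard-housed MSK1 kinase-dead mice (KD SH, libraries 1, 3, 4, 5 and 6), the KD libraries that the study retained. Both groups were homozygous for a point mutation in the endogenous MSK1 gene (Rps6ka5) that inactivates the N-terminal kinase domain, so the mutation was shared by the control group and was not limited to any cell type. The labels give an age of 12 weeks for all of them, and the study's methods describe males of a C57-Bl/6J background, taken from a homozygous line that was bred apart from the WT line. KD EE mice were born and raised in large cages with a running wheel, changing toys and more companions, and KD SH mice in standard cages with bedding and a tube. The labels do not say how the mice were spread over litters and cages, so the p-values below measure the spread between libraries. That spread was estimated over the 17 libraries of both genotypes that the study retained, and not over the 9 alone. Values by library are given in the order 1, 3, 4, 5 and 6 for KD SH and 7, 8, 32A and 36A for KD EE, as CPM (counts scaled to the size of the library), so n is 5 and 4 throughout.

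MSK1 is a nuclear kinase that is switched on by the ERK and p38 MAP kinases, for instance when BDNF binds its receptor TrkB, and that phosphorylates the transcription factor CREB and histone H3. Neuronal activity induces a set of rapidly transcribed genes in the hippocampus, among them Fos, Arc and Egr1, and CREB and the serum response factor are known regulators of many of them. The choroid plexus, which secretes the cerebrospinal fluid, lies against the hippocampus in the ventricle, together with the ciliated ependymal cells that line the ventricle and the fibroblasts of the meninges.

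The depth was between 18187696 and 54292242 counts on genes in KD SH and between 13003876 and 32629343 in KD EE, and 3 counts corresponded to between 0.0553 and 0.231 CPM, a limit that covers counting error only. Rps6ka5 (chr12:100548439-100726983, GRCm38, minus strand) was at 24.4, 26.4, 28.2, 26.6 and 25.2 CPM in the KD SH libraries and at 20.7, 21.98, 23.99 and 21.6 in the KD EE libraries. All 4 KD EE values lay below the KD SH values, but the difference was not called (log2 fold change -0.24 ± 0.08 SE, adjusted p = 0.15), and since counts per gene do not show a point mutation, they do not check the genotype.

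Before the results, 2 further KD libraries have to be named. Library 2 (KD SH) and library 9 (KD EE) passed quality control and were removed by the study for poor correlation within their group, which is a choice made on expression itself. The summed level of the 24 choroid plexus markers was 398, 490, 529, 328 and 292 CPM in KD SH and 1798, 3656, 4871 and 8788 CPM in KD EE, so the retained groups were far apart. It was 4639 CPM in library 2, as in the enriched libraries, and 538 CPM in library 9, close to the standard-housed ones. When both were added to the fit, no gene was called, with 1976 genes at an unadjusted p under 0.05 in edgeR. With library 2 alone 11 genes were called and with library 9 alone 197. Every call below therefore holds for the retained libraries, and values of libraries 2 and 9 stand beside many of the genes described. The WT comparison also left out libraries removed for that reason, 12 of WT SH and 31B and 35A of WT EE. Their mean log2 CPM over the choroid plexus markers was 4.31, 0.806 and 0.999. It was 0.868 to 3.22 in the retained WT SH libraries and 5.28 to 5.75 in the retained WT EE libraries. In bulk RNA, fewer cells of a type and less RNA per cell cannot be told apart.

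Of 49568 gene symbols, 18701 were tested, and 325 (1.74%) were called in KD EE against KD SH, which required an adjusted p no larger than 0.05 and a log2 fold change of 0.38 or more in either direction. Of these, 307 (1.64%) were higher and 18 (0.0963%) were lower, while over all genes 9330 log2 fold changes were above 0 and 9371 below it. All 24 choroid plexus markers were called higher, with a median log2 fold change of 3.77. Of the 307 higher genes, 270 were in none of the 27 gene lists described here. The choroid plexus list holds only 24 markers, so a gene outside the lists may still be one of choroid plexus. Of the 307, 281 were also among the 651 genes called higher in WT EE against WT SH, where 3.55% of all genes were called in either direction. Of the 18 lower genes, 0 were called lower in WT, where 13 of all 18701 genes were. With so few lower calls in WT, this count does not set the falls apart from WT.

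**Figure D1:**
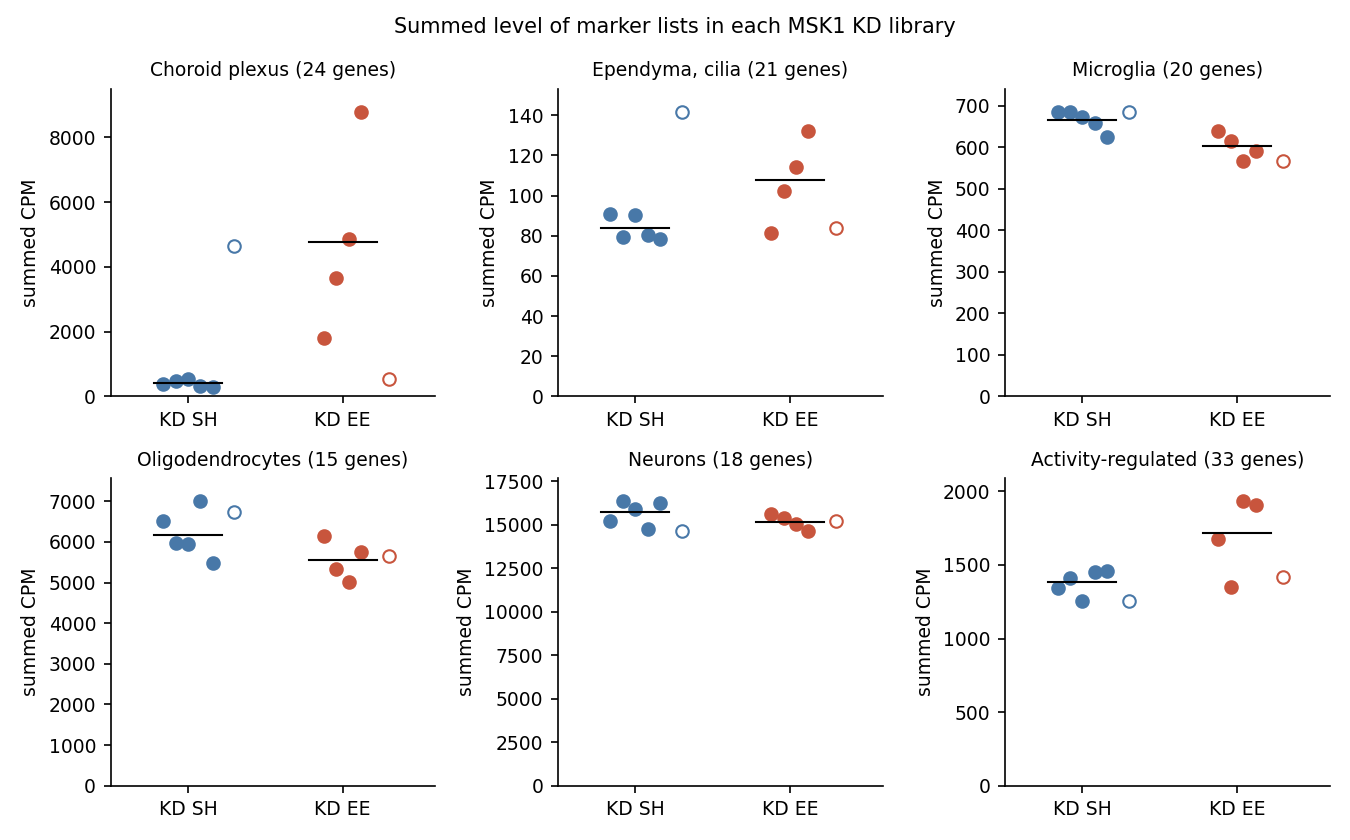
Summed CPM of 6 marker lists in each MSK1 KD library (vertical axis, CPM, from 0), with KD SH in blue and KD EE in red, filled points for the 9 libraries compared, open points for libraries 2 and 9, which the study removed, and black lines for the mean of the filled points. The choroid plexus sums of KD EE lie between 1798 and 8788 CPM and those of KD SH between 292 and 529 CPM, whereas the neuronal sums of both groups overlap.

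The gene with the lowest p among those that fell was Amd2 (chr10:35708675-35711892, minus strand), which encodes a second S-adenosylmethionine decarboxylase, an enzyme of polyamine synthesis. It was at 4.66, 5.51, 2.80, 4.05 and 4.64 CPM in KD SH and 0, 0.130, 0.272 and 0.20 in KD EE, which is 0, 4, 9 and 6 counts. The groups did not overlap, and the log2 fold change was -4.59 ± 0.67 (SE, adjusted p = 0.000185). The call held without each of the 9 libraries in turn, with the adjusted p at most 0.00209. It was lost in DESeq2 with a prior that shrinks fold changes. It was also absent under a minimum of 10 counts in every library, which Amd2 does not reach. Of the removed libraries, library 2 was at 3.75 CPM, within the range of its KD SH group. The enriched library 9 did not follow its housing, at 6.68 CPM, the highest of all KD libraries. Among the WT libraries that the study retained, Amd2 was between 2.80 and 6.14 CPM in 4 of the 5 WT SH libraries and in all 3 WT EE libraries, and at 0.222 CPM in WT SH library 13, so a level as low as in KD EE was also found in a standard-housed WT library. Its near copy Amd1 was at 86.5 to 111 CPM in KD SH, against 81.6 to 99.1 CPM in KD EE, and how reads that fit both genes were shared out rests on the authors' unique counting, so the level of Amd2 is uncertain.

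Capn11 (chr17:45630204-45659325, minus strand), which encodes a calpain protease, was at 1.49, 1.64, 1.57, 4.00 and 8.07 CPM in the KD SH libraries and at 0.383, 0.454, 0.333 and 0.333 in the KD EE libraries. It was called lower (log2 fold change -3.12 ± 0.76 SE, adjusted p = 0.0302), and the groups did not overlap. The call was lost without KD SH library 6 and without any of the 4 KD EE libraries, with adjusted p up to 0.152. Library 2 held 0.337 CPM, as low as the enriched libraries, and library 9 held 1.10 CPM. In WT SH, 4 of the 5 retained libraries were between 0.222 and 0.305 CPM, as low as KD EE, library 14 was at 2.03 CPM and the removed library 12 at 8.25 CPM.

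Frmpd2 (chr14:33471696-33575269, plus strand) encodes a scaffold protein with PDZ domains. It was at 3.32, 2.96, 4.15, 3.35 and 3.74 CPM in KD SH and 1.84, 2.40, 2.03 and 2.07 in KD EE, a change of -0.73 ± 0.14 (log2, SE, adjusted p = 0.00444). All enriched libraries lay below all standard-housed ones, and the call held with each library left out. Library 2 was at 3.68 CPM, with its group, and library 9 at 3.83 CPM, with the other group. In WT the log2 fold change was -0.44 (adjusted p = 0.126), and the difference between genotypes was not called (adjusted p = 0.875).

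The other lower genes were of low to moderate level and their log2 fold changes lay between -0.46 and -1.55. They were the non-coding genes Gm16551, A330069K06Rik, Gm15445, B130034C11Rik, 4930556I23Rik and Gm10649, the haematopoietic transcription factor Myb, the serine protease inhibitor Serpinb1a, the exon junction factor Magohb, the GTPase-activating protein Arhgap15, Fam89a, and the ciliary and glial genes Cdhr3, Ccdc153, Gpr34 and Opalin. Gm15445 and 4930556I23Rik are annotated antisense to other genes, and since strand was not used in counting, their reads cannot be told apart from those of the partner. Gm16551 was at 0.725, 1.58, 1.44, 1.297 and 1.13 CPM in KD SH, against 0.766, 0.519, 0.303 and 0.267 CPM in KD EE. Library 7 reached above KD SH library 1, so these groups overlapped, with libraries 2 and 9 at 0.884 and 1.42 CPM, but the call (log2 fold change -1.55, adjusted p = 0.00525) held with each library left out, as did that of Cdhr3. Serpinb1a was at 11.8, 10.1, 10.8, 16.3 and 9.25 CPM in the KD SH libraries and at 6.66, 8.65, 7.99 and 7.04 in the KD EE libraries, with library 2 at 11.3 and library 9 at 6.35 CPM, so that here the removed libraries did sit with their groups. Its log2 fold change was -0.58 (adjusted p = 0.0174), and the call was lost without KD EE library 7 or 36A. Of the 18 calls, 14 were lost when at least 1 of the 9 libraries was left out, and when 36A was the one omitted, 5 calls were left, which were those of Gpr34, Frmpd2, Cdhr3, Gm16551 and Amd2. In a fit of the 9 KD libraries alone, without WT, 5 of the 18 were called. These were Amd2, Capn11, Cdhr3, Frmpd2 and Gm16551, so the other calls also rested on the WT libraries.

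**Figure D2:**
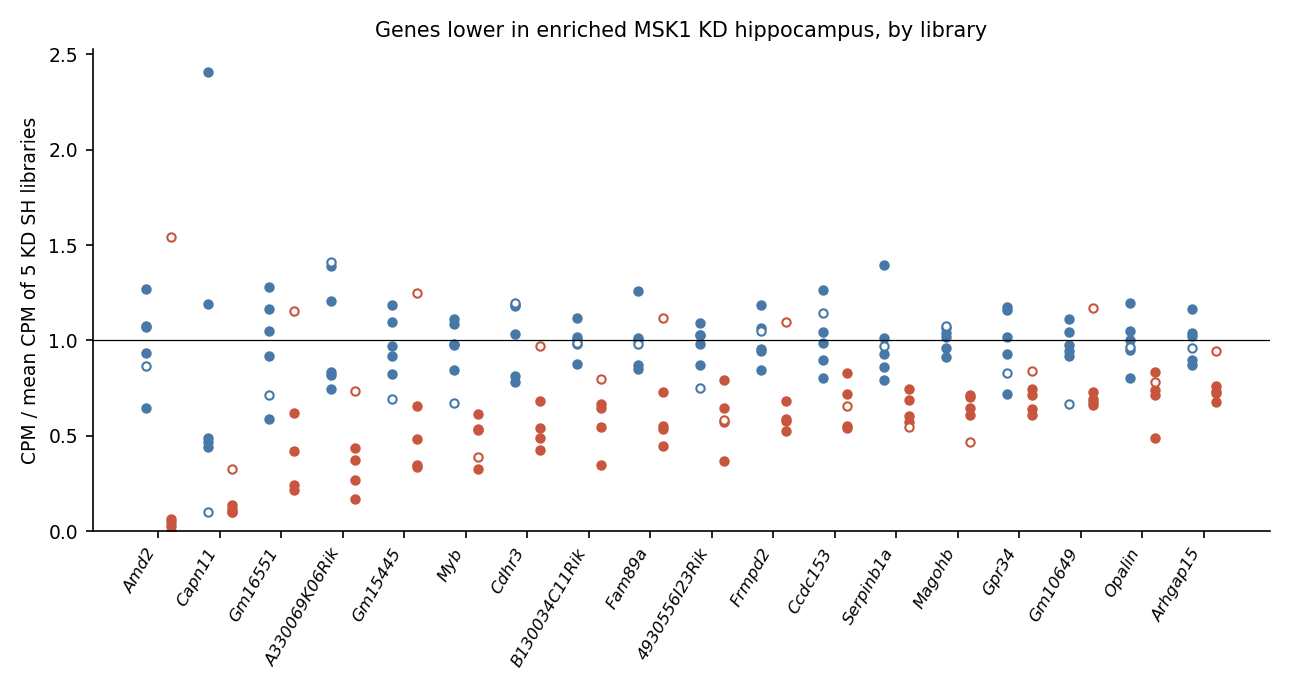
CPM of the 18 genes called lower in KD EE, each divided by the mean of the 5 KD SH libraries (vertical axis, linear, from 0), for KD SH (blue) and KD EE (red), with libraries 2 and 9 as open points. Amd2 and Capn11 fall furthest, and the open red point of library 9 lies above 1 for Amd2, Gm16551, Gm15445, Fam89a, Frmpd2 and Gm10649.

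A further set of genes lay below KD SH in every enriched library without being called. Over all genes, called or not, every enriched library lay below for 208 (1.11%) and above for 363 (1.94%). The 10 with the lowest p among those not called were Egfem1, Hmgn2, Gm43848, Mb21d1, Cdkl1, Zfp984, Zfp932, Gstm7, Gm30731 and Gm16577. Hmgn2, a nucleosome-binding protein, was at 54.9, 47.1, 47.5, 47.2 and 45.8 CPM in KD SH and 36.7, 39.7, 44.1 and 34.7 in KD EE. Libraries 2 and 9 were at 47.9 and 46.4 CPM, both in the KD SH range. Its adjusted p of 0.0371 passed, but its log2 fold change of -0.31 did not reach the size required. The same held for Egfem1, with a log2 fold change of -0.35 and an adjusted p of 0.028, and Egfem1 also differed in WT (-0.43, adjusted p = 0.00561).

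Ependymal and motile cilia genes moved in both directions. Of 22 listed genes 21 were tested, and 4 were called higher and 2 lower, against 1.64% and 0.0963% of all genes, with a median log2 fold change of -0.05. Foxj1, the transcription factor that directs motile cilia formation, was at 10.8, 10.3, 11.8, 9.24 and 12.2 CPM in KD SH, against 15.9, 15.2, 18.8 and 22.7 CPM in KD EE, and rose by 0.75 ± 0.12 (log2, SE, adjusted p = 0.000897). The groups did not overlap. Library 2 was at 20.6 CPM and library 9 at 9.75 CPM, each at the level of the opposite housing. Drc7, a component of the axoneme's dynein regulatory complex, rose by 2.47 and Tekt1, a microtubule-associated protein of cilia, by 0.86 on the log2 scale (adjusted p = 2.61e-06 and 0.00516). The fourth gene called higher was Rsph1, a radial spoke protein named after its values were seen (0.61, adjusted p = 0.0324).

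Against these, Cdhr3 and Ccdc153, both expressed in ciliated cells, fell. Cdhr3 (chr12:33033796-33092875, minus strand), a cadherin-related membrane protein, was at 4.66, 3.52, 5.33, 5.35 and 3.68 CPM in the KD SH libraries and at 1.91, 2.43, 3.09 and 2.20 in the KD EE libraries. The groups did not overlap (log2 fold change -0.86 ± 0.18 SE, adjusted p = 0.00696), while libraries 2 and 9 were at 5.39 and 4.38 CPM. Ccdc153, a coiled-coil protein, was at 7.81, 6.09, 5.53, 4.97 and 6.45 CPM in KD SH and 4.44, 5.12, 3.39 and 3.33 in KD EE. Library 8 lay above KD SH library 5, so these groups overlapped, and libraries 2 and 9 were at 7.05 and 4.05 CPM (log2 fold change -0.61 ± 0.14 SE, adjusted p = 0.0238), and the call was lost on leaving out library 1, 32A or 36A. Sntn and Tmem212, other genes of ciliated cells that were named after their values were seen, had log2 fold changes of -1.05 and -0.61 that were not called (adjusted p = 0.127 and 0.133). In WT, 8 of the 21 genes were called higher and 0 lower, with 17 above 0, against 651 higher and 13 lower of all 18701 genes. The difference KD minus WT was below 0 for 19 of the 21 genes, 8 of them at an unadjusted p under 0.05 in edgeR and 0 called by edgeR, against 3.47% of all genes below 0 at that p. Dnaic2, an outer dynein arm protein named after its values were seen, was at 0.14 in KD and 1.01 in WT on the log2 scale (difference -0.87, adjusted p = 0.845). The summed level was 90.8, 79.2, 90.4, 80.5 and 78.2 CPM in KD SH and 81.4, 102, 114 and 132 CPM in KD EE.

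The promoters of Cdhr3 and Ccdc153 are shown because these genes fell while other genes of the list rose. Shown are the 250 bases before the RefSeq transcription start (GRCm38.p6), 5′ to 3′ on the strand of the gene, at chrchr12:33092876-33093125 (- strand) and chrchr9:44240427-44240676 (+ strand). Capitals mark the letters GTTGCC or their reverse complement GGCAAC, an arm of the X-box that RFX factors, the ciliary transcription factors, recognise.
Cdhr3: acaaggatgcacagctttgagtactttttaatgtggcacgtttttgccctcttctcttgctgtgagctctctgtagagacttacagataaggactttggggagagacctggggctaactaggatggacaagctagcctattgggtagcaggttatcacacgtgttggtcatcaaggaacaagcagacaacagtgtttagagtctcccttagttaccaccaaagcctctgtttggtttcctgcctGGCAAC
Ccdc153: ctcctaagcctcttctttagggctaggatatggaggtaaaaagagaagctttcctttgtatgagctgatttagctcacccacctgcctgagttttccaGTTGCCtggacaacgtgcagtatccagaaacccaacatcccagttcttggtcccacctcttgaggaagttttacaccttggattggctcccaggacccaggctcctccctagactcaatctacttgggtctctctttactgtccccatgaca
Cdhr3 holds these letters at -6 from the start and Ccdc153 at -152. They occurred in the promoters of 8 of the 19 list genes that matched RefSeq, or 40.0% of their 20 starts, and in 10.4% of all 32851 starts. A match is a run of letters and not a bound site.

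Microglial genes leaned downward. Of the 20 listed genes, 19 had a log2 fold change below 0, against 50.1% of all genes, 7 were lower at an unadjusted p under 0.05, against 4.38%, and 1 was called lower, against 0.0963%, with a median of -0.10. Gpr34 (chrX:13632089-13640858, plus strand), a lysophosphatidylserine receptor, was at 13.5, 10.8, 11.8, 13.7 and 8.35 CPM in KD SH, against 8.27, 7.10, 7.47 and 8.67 CPM in KD EE. Library 36A lay just above KD SH library 6, so the groups overlapped, and libraries 2 and 9 were at 9.64 and 9.75 CPM. The log2 fold change was -0.55 ± 0.13 (SE, adjusted p = 0.023), and the call was lost without KD SH library 1, 4 or 5 and without KD EE library 8 or 32A. The next genes, named after their values were seen, were the purinergic receptors P2ry12 and P2ry13, both with a log2 fold change of -0.39 (adjusted p = 0.116 and 0.102). P2ry12 was at 43.3, 36.6, 38.5, 39.3 and 28.4 CPM in the KD SH libraries and at 31.2, 29.4, 24.7 and 27.8 in the KD EE libraries, with library 6 within the enriched range and libraries 2 and 9 at 35.5 and 25.2 CPM.

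The summed level of the microglial list was 685, 686, 673, 659 and 624 CPM in KD SH and 639, 616, 567 and 590 CPM in KD EE, with 686 in library 2 and 567 in library 9. Library 6 lay within the enriched range, and the removed libraries sat with their groups. With libraries 2 and 9 in the fit, 19 of the 20 genes were again below 0 and 8 at an unadjusted p under 0.05, but edgeR called 0. Without the libraries whose names carry letters (the lettered libraries) 15 were below 0, 2 at that p, with a median of -0.05, and with the level of the choroid plexus list as a covariate of the fit 13, 0 at that p, also with a median of -0.05. Here and below, that covariate did not overlap between KD SH and KD EE. A fit with it therefore cannot separate the list's level from housing. In WT the median log2 fold change was -0.11, with 15 of 20 below 0 and 0 called, and 1 of the 20 genes differed between genotypes at an unadjusted p under 0.05, with 0 called. Perivascular macrophage markers, 5 genes, had a median of 0.26 with 0 called by edgeR and by DESeq2 and 2 at an unadjusted p under 0.05.

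Genes of mature oligodendrocytes, the myelinating cells, were likewise mostly below 0, in 14 of 15, against 50.1% of all genes, with a median of -0.13. At an unadjusted p under 0.05, 4 were lower, against 4.38%, and 1 was called lower, against 0.0963%. Opalin (chr19:41061710-41077113, minus strand), a membrane glycoprotein of myelin, was at 34.6, 27.5, 29.0, 30.4 and 23.2 CPM in KD SH and 20.7, 24.2, 21.4 and 14.1 in KD EE, with 28.0 in library 2 and 22.7 in library 9. Library 8 lay above KD SH library 6, and 36A was the lowest of all. The log2 fold change was -0.52 ± 0.12 (SE, adjusted p = 0.0262), and the call was lost without KD SH library 1, 4 or 5 and without KD EE library 32A or 36A. In WT it was 0.12 (adjusted p = 0.749), and the difference between genotypes was -0.64 (unadjusted p = 0.00167, adjusted p = 0.871). Mog, a surface protein of myelin that was named after its values were seen, was at 68.7, 56.0, 59.6, 65.0 and 52.1 CPM in KD SH, against 50.6, 50.1, 51.5 and 50.4 CPM in KD EE, without overlap and with libraries 2 and 9 at 64.1 and 49.5 CPM (log2 fold change -0.24, adjusted p = 0.138). Mbp, an abundant myelin gene, was at -0.09 on the log2 scale (adjusted p = 0.676). With libraries 2 and 9 added, all 15 genes were below 0, 6 of them at an unadjusted p under 0.05, and 0 were called by edgeR. Without the lettered libraries 13 were below 0, 2 at that p, and with the choroid plexus covariate 10, 1 at that p.

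Other glial and vascular lists held 0 called genes by edgeR and by DESeq2. Astrocyte genes had a median log2 fold change of -0.01 over 20 genes, with 2 lower at an unadjusted p under 0.05 (S100b and Slc1a3, the glutamate transporter GLAST), and their most abundant members Slc1a2, Apoe and Glul were at -0.01, -0.01 and 0.01. Oligodendrocyte precursors had a median of -0.02 over 14 genes with 1 higher and 1 lower at that p, endothelium -0.02 over 14 with 1 and 1, pericytes and smooth muscle 0.08 over 7 with none at that p, and blood -0.01 over 5 with none. The haemoglobin genes gave a contrast with WT, where 4 of the 5 blood genes were called higher and the list's median was 0.91. Over all 18701 genes, 651 were called higher in WT. The summed level of the blood list was 37.2 to 49.7 CPM in WT SH and spread from 55.9 to 128 CPM in WT EE. Hbb-bs, a β-globin, was at 24.4, 19.9, 31.2, 22.6 and 19.3 CPM in the KD SH libraries and at 27.7, 25.6, 24.9 and 24.1 in the KD EE libraries, and its difference between genotypes was -0.86 (unadjusted p = 0.00128, adjusted p = 0.852).

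Meningeal and fibroblast genes leaned upward, as the choroid plexus genes did. All 15 had log2 fold changes above 0, against 49.9% of all genes, with a median of 0.61, and 4 were called higher, against 1.64%. With the choroid plexus covariate 11 were above 0, with a median of 0.27. Igf2, a growth factor made by choroid plexus and meninges, rose from 41.2, 42.5, 54.4, 34.4 and 35.9 CPM in KD SH to 81.6, 99.4, 169 and 217 CPM in KD EE (log2 fold change 1.77, adjusted p = 1.51e-05), with 126 CPM in library 2 and 37.7 CPM in library 9. The collagens Col1a2 and Col1a1 rose by 0.996 and 0.75 and the laminin Lama1 by 0.61 on the log2 scale. The Col1a1 call was lost on leaving out KD SH library 1, or 32A or 36A of KD EE, and that of Lama1 without any of 7 libraries (KD SH 1, 3, 5 and 6, KD EE 7, 32A and 36A). The summed level of the list was 127 to 210 CPM in KD SH, 239 to 393 CPM in KD EE, 309 CPM in library 2 and 151 CPM in library 9.

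**Figure D3:**
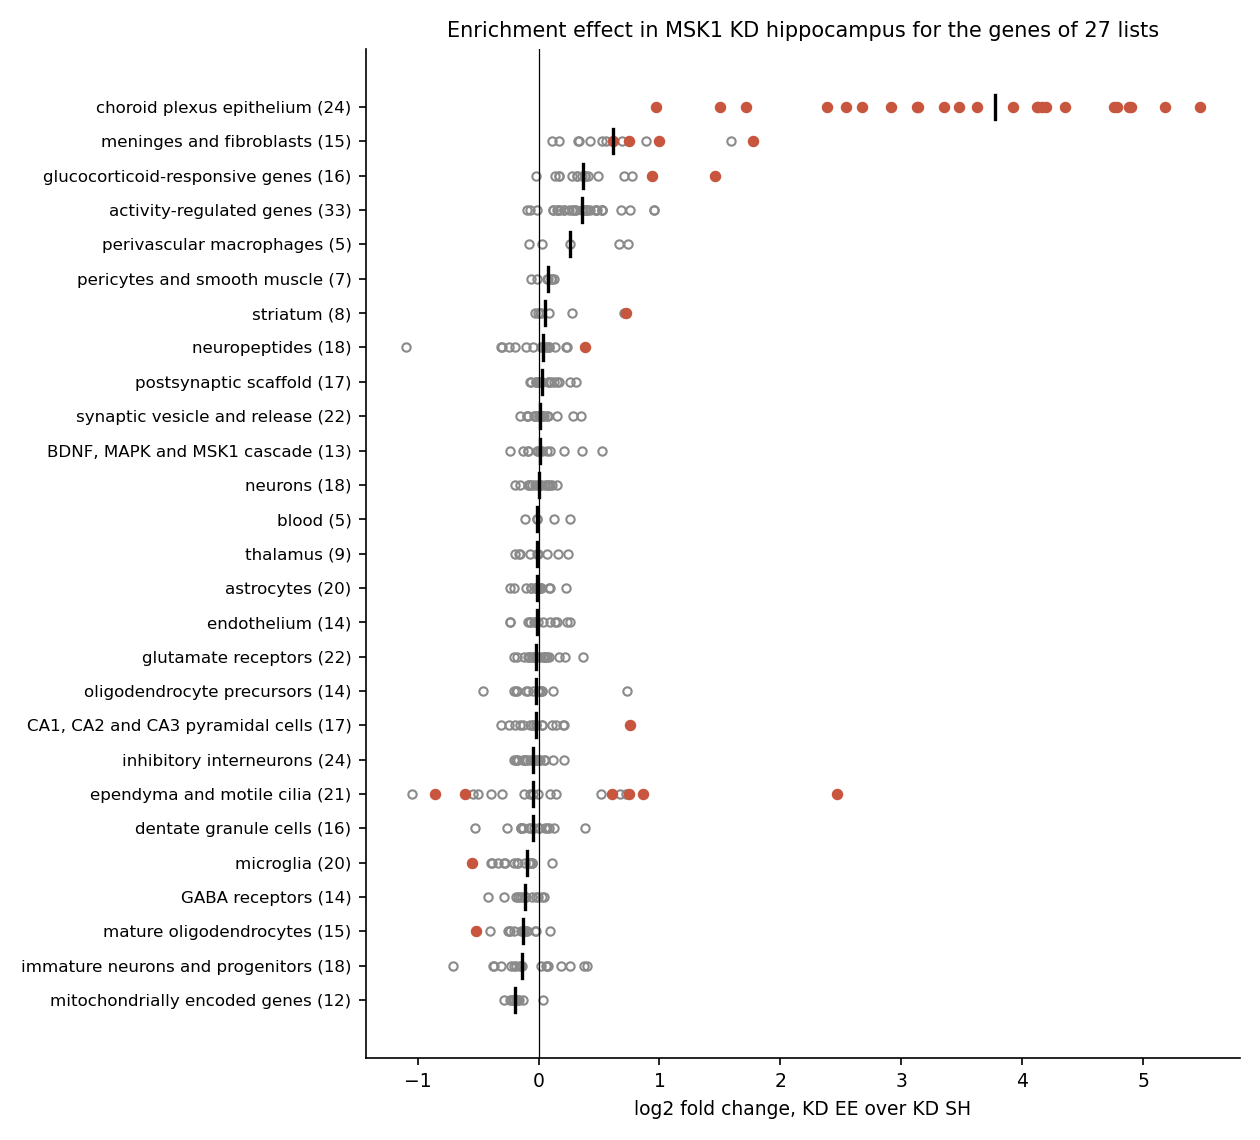
Log2 fold change of KD EE over KD SH (horizontal axis) for each tested gene of 27 lists, with the number of genes tested in brackets, filled red points for called genes, open grey points for the others and a black bar for the list's median. Choroid plexus genes lie far to the right with a median of 3.77, the activity-regulated list has a median of 0.36 with no gene called by edgeR, and most neuronal and synaptic lists centre near 0.

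Neuronal genes differed little. Of 18 general neuronal genes 0 were called by edgeR or DESeq2, 1 was higher and 1 lower at an unadjusted p under 0.05, and the median log2 fold change was 0.01, within a range of -0.19 to 0.15. Camk2a, the synaptic kinase of excitatory neurons, had a log2 fold change of -0.07 ± 0.07 (SE), Snap25, a protein of vesicle fusion, -0.16 ± 0.08, and Syt1, the calcium sensor of release, -0.08 ± 0.06. By cell type, 0 genes were called among 16 of dentate granule cells (median -0.05), 24 of inhibitory interneurons (median -0.04) and 18 of immature neurons and progenitors (median -0.14), with 1 higher and 2 lower, 1 higher and 1 lower, and 0 higher and 2 lower at an unadjusted p under 0.05, and DESeq2 also called 0. The most abundant dentate genes, Rfx3, Stxbp6 and Calb1, had log2 fold changes of -0.06, -0.26 and -0.14, the interneuron genes Gad1, for GABA synthesis, and Cnr1, the cannabinoid receptor, -0.12 and -0.02, and Stmn1, Tubb2b and Dpysl3, which act on the cytoskeleton of growing neurons, -0.15, 0.06 and 0.07. Among 17 pyramidal cell genes the kinase Map3k15 was called higher, at 2.56, 2.44, 1.68, 2.11 and 2.41 CPM in KD SH and 1.61, 4.05, 4.39 and 4.43 in KD EE. Library 7 was the lowest of the 9, library 2 was at 4.02 and library 9 at 1.31 CPM, and the call (adjusted p = 0.0453) was lost without any of the 9 libraries but KD EE library 7.

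Synaptic genes gave few differences as well. Glutamate receptor genes had a median log2 fold change of -0.02 over 22 genes, synaptic vesicle and release genes 0.02 over 22, postsynaptic scaffold genes 0.03 over 17 and GABA receptor genes -0.11 over 14, and 0 of them were called by edgeR or DESeq2. At an unadjusted p under 0.05 there were 1 higher and 2 lower, 2 higher, 4 higher, and 1 lower. Gria2, which encodes the AMPA receptor subunit that limits calcium entry, was at 902, 946, 1040, 1090 and 935 CPM in KD SH, against 857, 827, 879 and 825 CPM in KD EE. The groups did not overlap, with library 2 at 810 and library 9 at 976 CPM, but the log2 fold change of -0.21 ± 0.07 (SE) was not called (adjusted p = 0.159). Gria1, the subunit most tied to plasticity, had a log2 fold change of -0.08 (adjusted p = 0.774). Of the 14 GABA receptor genes, 12 were below 0, the most negative, Gabrg1, at -0.42 (adjusted p = 0.19).

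Among 18 neuropeptides and related secreted proteins, 1 was called. Vgf (chr5:137026392-137033351, plus strand), a secreted neuronal protein whose gene responds to neurotrophins, was at 177, 208, 177, 174 and 204 CPM in the KD SH libraries and at 241, 237, 233 and 265 in the KD EE libraries. All 4 enriched libraries lay above the 5 standard-housed ones, library 2 was at 179 CPM with its group, and library 9 at 211 CPM lay between the groups. The log2 fold change was 0.38 ± 0.08 (SE, adjusted p = 0.00626), and it was 0.36 with libraries 2 and 9 in the fit (adjusted p = 0.122). The call was lost without KD SH library 1, 4 or 5 and without KD EE library 36A, where the fold change came to lie just under the size required, and over the 9 omissions the log2 fold change was between 0.35 and 0.42 and the adjusted p at most 0.0499. In WT it was 0.22 (adjusted p = 0.21), and the difference between genotypes was not called (adjusted p = 0.875).

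Activity-regulated genes leaned upward without any single one being called. Of 33 genes, 30 had a log2 fold change above 0, against 49.9% of all genes, and 20 were higher at an unadjusted p under 0.05, against 6.96%. The median was 0.36. edgeR called 0 and DESeq2 called 1, and the lowest adjusted p was 0.0571. Arc, a cytoskeletal protein of dendrites, was at 145, 138, 103, 194 and 177 CPM in KD SH and 222, 134, 295 and 214 in KD EE. Library 8 lay within the standard-housed range and the other enriched libraries above it, with libraries 2 and 9 at 128 and 178 CPM (log2 fold change 0.53 ± 0.20 SE, adjusted p = 0.276). Egr1, a zinc finger transcription factor, was at 153, 167, 151, 221 and 165 CPM in KD SH, against 218, 164, 257 and 234 CPM in KD EE, with library 8 again low, KD SH library 5 high and libraries 2 and 9 at 139 and 151 CPM (0.36 ± 0.13 SE, adjusted p = 0.251). Homer1, a postsynaptic scaffold with an activity-induced short form, was between 104 and 110 CPM in libraries 7, 8 and 32A and at 178 CPM in 36A, against 87.8 to 116 CPM in KD SH.

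Fosb and Nr4a2 were the 2 genes of this list in which every enriched library lay above every standard-housed one, and the genes of this paragraph were chosen after their values were seen. Fosb, an AP-1 subunit, was at 10.6, 9.92, 9.12, 11.9 and 8.46 CPM in the KD SH libraries and at 12.9, 13.6, 16.9 and 23.0 in the KD EE libraries (log2 fold change 0.76 ± 0.20 SE, adjusted p = 0.0608). Nr4a2, an orphan nuclear receptor, was at 78.5, 74.3, 57.0, 66.5 and 69.0 CPM in KD SH and 82.9, 84.6, 86.9 and 84.2 in KD EE (0.30 ± 0.09 SE, adjusted p = 0.134). Library 9 was at 9.86 CPM for Fosb and at 61.2 CPM for Nr4a2, within the KD SH range of both. Sik1, a kinase that restrains CREB co-activators, and Dusp5, a phosphatase of ERK, had log2 fold changes of 0.96 and 0.68 (adjusted p = 0.0571 and 0.0575). Npas4 and Jun, also immediate early genes, were at -0.07 and -0.01.

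The summed level of the list was 1340, 1410, 1257, 1452 and 1459 CPM in KD SH and 1678, 1350, 1935 and 1910 CPM in KD EE, so that library 8 lay among the standard-housed libraries. Libraries 2 and 9 were at 1257 and 1421 CPM, both within the KD SH range. With these 2 in the fit, 31 genes were above 0 and 19 at an unadjusted p under 0.05, with a median of 0.30. Without library 36A the numbers were 31, 14 and 0.27, without 32A 28, 13 and 0.28, and without library 8 31, 26 and 0.47. Without the lettered libraries, which leaves only 7 and 8 of KD EE, 26 genes were above 0 and 3 at that p, with a median of 0.14. The choroid plexus sum moved with these values in part, being highest in 36A and 32A, and with it as a covariate 22 genes were above 0, 0 of them at an unadjusted p under 0.05. Its part in the result was not tested, and this fit cannot decide it, because the list's level did not overlap between KD SH and KD EE.

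In WT, the same list pointed the other way without any gene being called, with 22 of 33 genes below 0 (50.5% of all genes) and a median of -0.13. Its summed level was 1420 to 1752 CPM in WT SH and 1255.5 to 1628.5 CPM in WT EE. In KD SH it was 1257 to 1459 CPM, so the standard-housed levels overlapped in part and WT SH reached higher. The difference between genotypes depends on these standard-housed levels too. The difference between genotypes, KD minus WT, was above 0 for 32 of the 33 genes, against 48.5% of all genes, and 16 were above 0 at an unadjusted p under 0.05, against 2.05%. None of these differences was called, and over all genes the test of the difference called 0 of 18701 with edgeR, where 1031 genes had an unadjusted p under 0.05, and 2 with DESeq2. Lowest in p were Spry4, a feedback inhibitor of receptor kinases (difference 0.68 ± 0.17 SE, adjusted p = 0.836), and to Egr1 (0.76, adjusted p = 0.836), with Arc at 0.94 (adjusted p = 0.875).

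**Figure D4:**
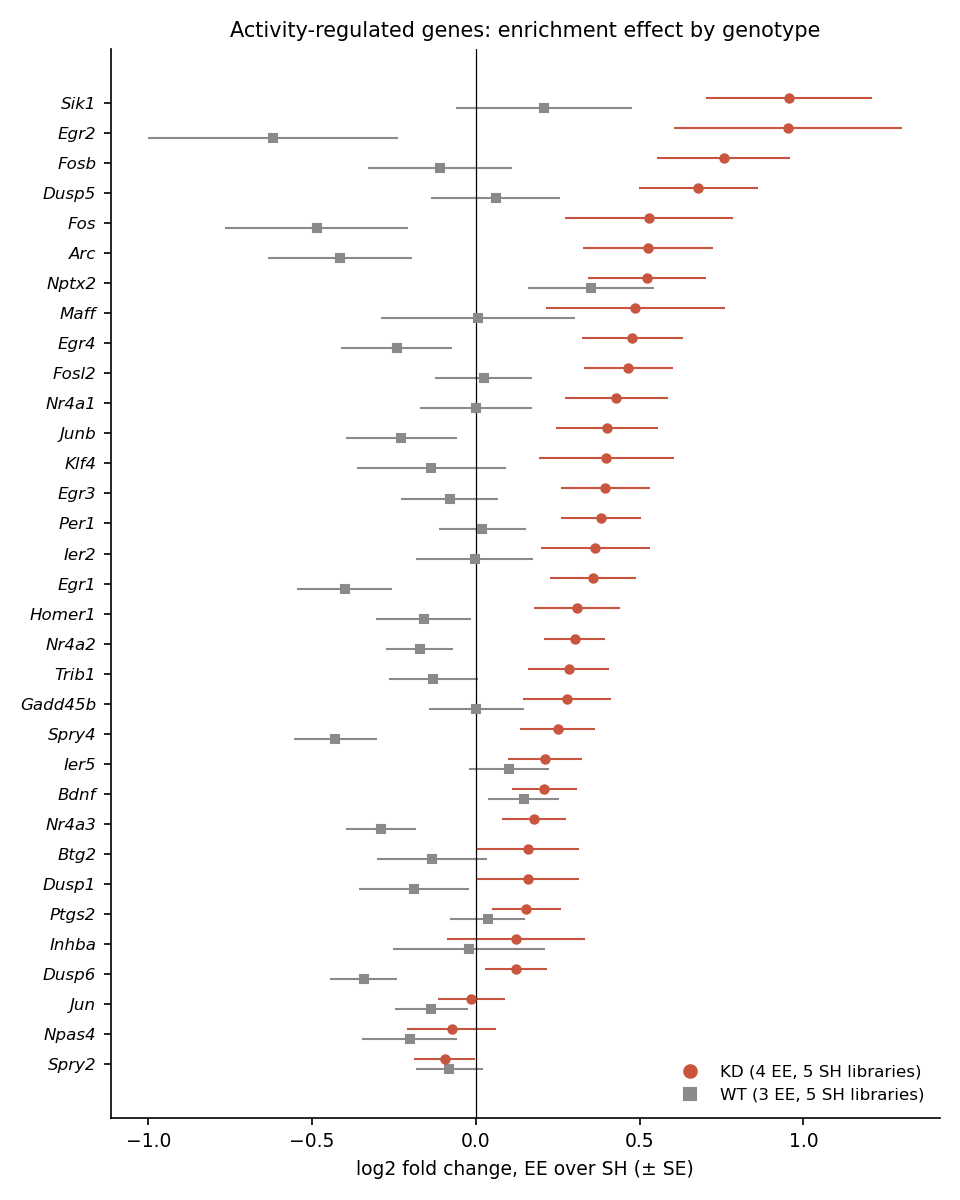
Log2 fold change of EE over SH with its standard error (horizontal axis) for the 33 activity-regulated genes in KD (red circles, 4 EE and 5 SH libraries) and WT (grey squares, 3 EE and 5 SH libraries), ordered by the KD value. KD values lie above 0 for 30 genes and WT values below 0 for 22, and KD exceeds WT in 32, while edgeR called no gene in either genotype.

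Promoters of 5 of these genes are shown because CREB, a substrate of MSK1, and the serum response factor bind known short motifs, and because these genes were among those higher at an unadjusted p under 0.05. They are the 250 bases before the RefSeq start (GRCm38.p6), 5′ to 3′ on the gene's strand, of Fosb at chrchr7:19310046-19310295 (- strand), Nr4a1 at chrchr15:101266596-101266845 (+ strand), Nr4a2 at chrchr2:57124004-57124253 (- strand), Egr4 at chrchr6:85513590-85513839 (- strand) and Dusp5 at chrchr19:53528895-53529144 (+ strand). Capitals mark the half-site of the cAMP response element, TGACG or its reverse complement CGTCA, and in Dusp5 also the CArG box, which lies at -82 and, directly after it, at -72, so that both form 1 run of capitals.
Fosb: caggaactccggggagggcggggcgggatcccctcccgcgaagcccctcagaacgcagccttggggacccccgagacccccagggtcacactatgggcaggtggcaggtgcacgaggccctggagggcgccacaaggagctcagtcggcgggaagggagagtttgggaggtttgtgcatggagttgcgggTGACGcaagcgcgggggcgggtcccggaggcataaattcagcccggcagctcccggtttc
Nr4a1: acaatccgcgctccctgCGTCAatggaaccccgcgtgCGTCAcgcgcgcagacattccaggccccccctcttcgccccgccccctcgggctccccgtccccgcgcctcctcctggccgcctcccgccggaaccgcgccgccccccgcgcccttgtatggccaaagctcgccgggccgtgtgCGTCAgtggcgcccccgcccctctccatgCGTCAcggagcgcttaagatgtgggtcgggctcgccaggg
Nr4a2: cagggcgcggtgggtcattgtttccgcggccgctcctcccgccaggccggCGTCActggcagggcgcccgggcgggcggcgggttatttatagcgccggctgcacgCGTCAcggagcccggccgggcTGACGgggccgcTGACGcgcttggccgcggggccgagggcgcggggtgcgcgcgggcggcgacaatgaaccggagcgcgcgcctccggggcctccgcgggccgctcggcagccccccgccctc
Egr4: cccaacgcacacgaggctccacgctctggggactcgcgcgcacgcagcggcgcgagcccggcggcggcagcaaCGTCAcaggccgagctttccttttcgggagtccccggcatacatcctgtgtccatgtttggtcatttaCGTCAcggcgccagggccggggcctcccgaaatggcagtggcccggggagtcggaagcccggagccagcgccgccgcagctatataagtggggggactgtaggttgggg
Dusp5: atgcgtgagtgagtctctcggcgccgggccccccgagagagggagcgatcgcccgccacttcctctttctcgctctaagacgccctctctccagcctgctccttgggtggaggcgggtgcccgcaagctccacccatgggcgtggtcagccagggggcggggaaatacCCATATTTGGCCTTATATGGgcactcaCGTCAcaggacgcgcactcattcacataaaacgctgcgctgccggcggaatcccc
The half-site stood at -60 in Fosb, at -233, -213, -69 and -40 in Nr4a1, at -200, -144, -123 and -111 in Nr4a2, at -177 and -109 in Egr4 and at -55 in Dusp5. All 5 genes shown hold it, but they are only some of the 20 list genes higher at an unadjusted p under 0.05 in edgeR. They do not stand for the rest of the list. Over the list, 25 of the 33 genes matched RefSeq, and 17 of these held a half-site in this window, which is 53.8% of their 39 starts, against 17.8% of all 32851 starts. The full element, TGACGTCA, was in 3 of the 25 genes and in 1.55% of all starts, and the CArG box in 2 of the 25 and in 1.47% of all starts. Both strands were searched, the full element contains half-sites, and a match describes letters and not binding.

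The cascade that leads from BDNF to MSK1 was not called in any of its 13 listed genes by edgeR or DESeq2, with 3 higher and 1 lower at an unadjusted p under 0.05 and a median log2 fold change of 0.01. Bdnf itself was at 36.7, 42.0, 39.2, 34.5 and 34.9 CPM in KD SH, against 53.4, 34.7, 40.0 and 45.6 CPM in KD EE. Library 7 was the highest and library 8 lay within the standard-housed range (0.21 ± 0.10 SE, adjusted p = 0.439). Ntrk2, the gene of TrkB, was at 0.07, the ERK kinases Map2k1 and Map2k2 at -0.08 and 0.10, the ERK gene Mapk3 at -0.08, p38α (Mapk14) at 0.01, Creb1 at -0.01 and Rps6ka4, which encodes the related kinase MSK2, at 0.03 on the log2 scale. Arc, Egr1 and Rps6ka5, described above, are also in the list.

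Glucocorticoid-responsive genes were above 0 in 15 of 16, against 49.9% of all genes, with a median log2 fold change of 0.37, and 2 were called higher, against 1.64%. In WT 14 of 16 were above 0, with a median of 0.27 and 0 called by edgeR. Cdkn1a, the cell cycle inhibitor p21, was at 6.36, 6.55, 5.44, 6.05 and 5.86 CPM in the KD SH libraries and at 8.58, 7.16, 9.89 and 19.9 in the KD EE libraries. All enriched libraries were above the standard-housed ones, with 36A far above the rest, and the log2 fold change was 0.93 (adjusted p = 0.00844), or 0.51 at the lowest with 1 library left out. Library 2 was at 6.53 CPM, and library 9, at 3.07 CPM, was below every one of them. Plin4, a lipid droplet protein, was at 2.66, 1.92, 2.97, 2.38 and 4.22 CPM in KD SH and 3.75, 4.05, 3.93 and 18.6 in KD EE. The groups overlapped, libraries 2 and 9 were at 4.02 and 3.50 CPM, and its call (log2 fold change 1.46, adjusted p = 0.0331) rested on 36A, without which the log2 fold change was 0.48 (adjusted p = 0.541), and it was also lost without KD SH library 1, 3, 4 or 5. Without 36A the median of the list was 0.10, with 12 of 16 above 0. It was 0.11 without the lettered libraries, with 13 above 0 and 1 at an unadjusted p under 0.05, and -0.07 with the choroid plexus covariate, with 8 above 0. Fkbp5, a standard marker of glucocorticoid receptor activity, was at 37.2 to 56.5 CPM in KD SH, 46.1 to 49.0 CPM in libraries 7, 8 and 32A and 74.1 CPM in 36A (adjusted p = 0.733), and was named after its values were seen.

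Outside the choroid plexus, ependymal and meningeal lists, the 15 largest rises without overlap between the groups, at a mean of at least 1 CPM, were those of Wfdc2, Prr32, 1500015O10Rik, Wdr86, Wdr72, Rbm47, Oca2, Krt18, Abca4, Lmx1a, Ace, Scara5, Col8a2, Pla2g5 and Slc16a8, with log2 fold changes of 2.49 to 4.39. Ace, which encodes angiotensin-converting enzyme, was at 10.2, 12.4, 12.97, 8.65 and 11.3 CPM in KD SH, against 29.9, 51.0, 76.9 and 103 CPM in KD EE (log2 fold change 2.56, adjusted p = 2.61e-06). Library 2 was at 55.0 CPM and library 9 at 10.8 CPM, each at the level of the opposite housing, as with the choroid plexus sum. Krt18, an epithelial keratin, was at 0.453 to 1.10 CPM in the KD SH libraries and at 3.83 to 10.7 in the KD EE libraries, and Slc16a8, a lactate transporter of epithelia, at 0.649 to 0.967 CPM and at 2.30 to 6.67 CPM. All 15 calls held without each library in turn, and each of the 15 genes was called higher in WT too. The 3 lists hold only some markers of their tissues, so these 15 genes may still belong to one of those tissues. Their tissue of origin was not tested.

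Some of the rises had small changes in WT. Nedd9, a scaffold of focal adhesions, was at 11.2, 11.2, 12.4, 11.03 and 10.3 CPM in KD SH and 14.8, 12.5, 14.9 and 19.5 in KD EE, without overlap (log2 fold change 0.47, adjusted p = 0.0238), with library 2 at 12.1 and library 9 at 14.8 CPM and a WT log2 fold change of 0.07 (adjusted p = 0.87). Lipe, hormone-sensitive lipase, was at 6.94, 8.92, 8.35, 6.86 and 8.77 CPM in KD SH, against 11.2, 10.2, 9.56 and 11.6 CPM in KD EE (0.41, adjusted p = 0.0418), and at 0.26 in WT (adjusted p = 0.299). Both were chosen after their values were seen, and for neither was the difference between genotypes called (adjusted p = 0.875 and 0.903). The striatal gene Ppp1r1b, which encodes DARPP-32, is given for its list and not for its change in WT. It was called higher (0.72, adjusted p = 0.0166) at 28.1 to 36.2 CPM in KD SH and 42.1 to 66.3 CPM in KD EE, and the call was lost without 36A. In KD, the other 7 striatal markers and the 9 thalamic markers held 0 calls by edgeR and by DESeq2, with 0 of them at an unadjusted p under 0.05. In WT, edgeR called 1 of the 8 striatal markers and 1 of the 9 thalamic markers higher. The 12 mitochondrially encoded genes tested had a median of -0.20 with 0 called and 0 at that p, and their summed level ranged from 32677 to 55652 CPM in KD SH and from 33280 to 44331 CPM in KD EE.

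The 5 genes with the lowest p for the difference between genotypes were Amd2, Hist1h1c, Capn11, Aox1 and Fam83g, of which none was called. Amd2 differed by -4.90 (adjusted p = 0.123). Hist1h1c, a linker histone, was at 18.7, 19.6, 26.6, 11.3 and 16.2 CPM in the KD SH libraries and at 19.8, 18.6, 19.6 and 23.5 in the KD EE libraries, so these groups overlapped, while its WT log2 fold change was 1.35 (adjusted p = 1.52e-05, difference -1.22, adjusted p = 0.384). For Aox1, an aldehyde oxidase, the KD value was 0.28 (adjusted p = 0.237) and the WT value 0.95, a difference of -0.67 (adjusted p = 0.754). Capn11 and Fam83g differed by -4.81 and -3.07 (adjusted p = 0.754 for both), and Fam83g was at most 0.378 CPM in the 9 libraries.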

How the data were processed

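PolyA RNA libraries of whole mouse hippocampus were sequenced by the authors, whose pipeline used Skewer for trimming, STAR 2.5 for alignment to GRCm38 and HTSeq for unstranded counting of unique reads. The deposited values are raw counts per gene symbol and library. Summary rows without a gene (14.1 to 16.1% of all) were left out. Counts on genes were 13003876 to 54292242 per library. edgeR 4.0.16 (limma 3.58.1, R 4.3.3) fitted group means to the 17 libraries that the study retained, after its filter on low counts and TMM scaling, with the quasi-likelihood test, Benjamini-Hochberg adjustment and contrasts KD EE minus KD SH and KD minus WT. The fit was also run on simulated counts with known fold changes. These counts held no shared spread between libraries like that of the choroid plexus genes, so they do not test the fit against such spread. A call required an adjusted p no larger than 0.05 and a log2 fold change of 0.38 or more in either direction. CPM values were TMM-scaled over 22 libraries. Of the 36 pairs among the 9 KD libraries, 0 were identical. Coordinates are those of GENCODE M21. DESeq2 1.42.0 was an alternative. DESeq2 counts in the text are without the fold change prior unless the prior is named.

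Named were all lower genes, the 15 largest rises without overlap, at a mean of at least 1 CPM and outside the choroid plexus, ependymal and meningeal lists, every called list member (the 4 largest where more were called, and the 3 most abundant where none was), the cascade, the 5 lowest p for the difference between genotypes and the 10 lowest p among uncalled genes with every KD EE library below KD SH. The comparison and lists were chosen with earlier results of these data known. Figures were drawn with matplotlib 3.10.9. Some genes that this rule names are not reported here.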

Additional observations from a re-analysis of the deposited data

Results flagged for a closer look

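In 22 of 296 groups of 4 or 5 libraries, 1 value stood apart from the rest of its group by more than Dixon's limit. By chance this occurs in about 1 in 20 groups, and 21 of the 22 values are given here. In KD EE library 36A these were Slc2a1 at 101 CPM (the other enriched libraries 59.5 to 63.3), Homer1 at 178 (104 to 110) and Plin4 at 18.6 (3.75 to 4.05). In KD EE library 7 they were Itm2a at 41.6 CPM (36.3 to 36.7), Rgs5 at 96.0 (80.4 to 81.8), Rfx3 at 127 (108 to 110), Map3k15 at 1.61 (4.05 to 4.43) and mt-Nd1 at 5696 (4091 to 4356). The summed interneuron list was low in KD EE library 8 at 2164 CPM (2246 to 2250), and the summed glutamate receptor list was high in 32A at 4953 CPM (4656 to 4686).

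Among the standard-housed libraries, library 5 held Olig1 at 104 CPM (the others 132 to 142), Apoe at 1085 (1419 to 1503), Egr1 at 221 (151 to 167), Map2k1 at 258 (321 to 346), Mapk3 at 123 (158 to 168), Creb1 at 72.4 (56.9 to 58.7) and Rora at 65.2 (40.5 to 43.2). Library 1 held Grin2b at 530 CPM (711 to 783) and Hmgn2 at 54.9 (45.8 to 47.5), and library 4 held Wdr72 at 0.411 CPM (0.0691 to 0.112) and Lmx1a at 0.505 (0.162 to 0.242). These values were not explained by any label.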

How the results depend on the processing

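Against the 325 calls (307 higher, 18 lower) of the retained libraries, 0 genes were called when libraries 2 and 9 were added, in all 22 libraries that passed quality control, in all 24, or with the choroid plexus list as a covariate, with 1976, 1779, 1697 and 519 genes at an unadjusted p under 0.05 in edgeR. DESeq2 was not run on these sets. The 9 KD libraries alone gave 199 calls (194 higher, 5 lower). The set without lettered libraries, all of which were enriched, kept only 7 and 8 of KD EE and gave 78 (77 higher, 1 lower). A minimum of 10 counts in every library gave 204 (193 and 11). Called lower were 40 genes in DESeq2, 36 without a filter on low counts. Adding library 2 alone gave 11 calls (8 and 3) and library 9 alone 197 (189 and 8), both chosen after seeing the data. With 1 library left out, calls ranged from 190 without 36A to 423 without 7, higher genes from 185 to 398 and lower genes from 5 to 33. DESeq2 called 306 of the 307 higher and 17 of the 18 lower genes. With its fold change prior, DESeq2 called 247 genes higher and 14 lower, and these held 222 of the 307 and 11 of the 18. Amd2 and Capn11 were not among the lower genes called with this prior. The median log2 fold change of the choroid plexus list was 0.33 with the prior, against 3.77 in the main fit. The difference between genotypes gave 0 calls, but 2 in DESeq2, 10 without a filter and 0 to 1 with 1 library left out. The cause was not tested.

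With the covariate, the log2 fold changes turned to -1.07 for Wdr86, -0.82 for Wdr72, -0.31 for Abca4, -1.21 for Lmx1a, -0.48 for Scara5, -0.23 for Pla2g5, -0.51 for Tmem72, -0.58 for Ttr and -0.0071 for Slc4a5. Other named rises stayed above 0, such as Wfdc2 at 1.16, Slc16a8 at 0.89, Oca2 at 0.75 and Ace at 0.47. Of the 24 choroid plexus markers, 12 were above 0 and 12 below it. The covariate is built from the choroid plexus genes themselves. Their mean log2 CPM was 0.676 to 1.84 in KD SH and 3.52 to 5.75 in KD EE. The covariate therefore takes up much of the housing contrast for any gene. No paired analysis was possible because library codes are not shared between the groups. With 4 and 5 libraries, depth limits genes near 3 counts.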
